A study of Mus musculus with 5 samples.

Results

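The stromal cells of dissociated mouse islets were taken as the droplets rich in collagen and decorin transcripts. They numbered 212 of 22758 kept cells, or 0.932%, from 5 mice. A cell was kept if it had 1000 or more UMIs (unique molecular identifiers, which count captured mRNA molecules) from 500 or more genes, and if mitochondrial transcripts made up no more than 15% of them. A stromal cell had at least 5 UMIs summed over Col1a1, Col1a2, Col3a1 and Dcn, at most 2 summed over the endothelial genes Plvap, Flt1, Kdr and Emcn, at most 2 summed over the macrophage genes C1qa, C1qb and C1qc, and less than 20% of its UMIs in insulin, glucagon, somatostatin and pancreatic polypeptide transcripts. The levels of these genes therefore describe the choice of cells. The sum of collagen and decorin UMIs ran from 5 to 270 over the 212 cells, with a median of 40.5. Just inside the threshold, 7 cells had a sum of 5 and 5 cells a sum of 6, and just outside it 8 cells had 4 and 10 cells had 3.

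All 5 mice were NOD.SCID (NOD.Cg-Prkdcscid/J), the diabetes-prone NOD background with the Prkdc scid mutation that leaves animals without mature T and B cells, so the islets of both groups lacked adaptive immunity. HC mice 1 and 2, aged 7 and 9 weeks, ate a diet with 20% hydrolyzed casein, in which the milk protein is broken into peptides and amino acids. Chow mice 1, 2 and 3, aged 8, 10 and 10 weeks, ate standard chow. Islets were handpicked after collagenase digestion, dispersed with trypsin and profiled with the 10x Genomics 3′ v3 assay, 1 library per mouse. The library of HC mouse 2 carries a chow-fed title but an HC diet label and was kept as HC. Library names begin with FUN (HC 1, chow 1) or SKY (HC 2, chow 2, chow 3), and what the prefix marks is not given in the sources used here.

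Stroma is the supporting tissue around and within an organ. In pancreatic islets it comprises fibroblasts, which secrete fibrillar collagens, proteoglycans and elastic-fibre proteins into the islet capsule and the space around vessels, and pericytes, contractile cells that wrap capillaries and sit within the vessel basement membrane. Decorin and lumican, encoded by Dcn and Lum, are small leucine-rich proteoglycans that bind collagen fibrils, and fibroblasts make both. Rgs5, a regulator of G protein signalling, and Pdgfrb, the receptor through which endothelial PDGF-B recruits mural cells, mark pericytes.

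The genes that chose the cells lie on several chromosomes of GRCm38, as annotated by RefSeq. Col1a1 (ENSMUSG00000001506) spans chr11:94936224-94953042, Col1a2 (ENSMUSG00000029661) chr6:4505618-4541543 and Col3a1 (ENSMUSG00000026043) chr1:45311538-45349706. Dcn (ENSMUSG00000019929; chr10:97479500-97518163) and Lum (ENSMUSG00000036446; chr10:97565501-97572703) are neighbours, followed on chromosome 10 by 2 more members of their family, Kera and Epyc. The neighbours did not share the pattern. Dcn and Lum were read in every mouse, while Kera had 4 UMIs in the 212 cells, all in HC mouse 2, and Epyc had 0, which allows up to 3.

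The 150 bases before the annotated start are shown for Col1a2 and Col3a1, the collagen genes of the rule with UMIs in the largest shares of the 212 cells, and for Rgs5, the pericyte gene (3 of 8 genes looked up had an entry; RefSeq, GRCm38.p6, plus strand; Col1a2 chr6:4505468-4505617, Col3a1 chr1:45311388-45311537, Rgs5 chr1:169655351-169655500). Capitals mark the first match to CCAAT, the CCAAT box, on either strand (ATTGG on the strand shown), or to TATAAA, the TATA box.
Col1a2: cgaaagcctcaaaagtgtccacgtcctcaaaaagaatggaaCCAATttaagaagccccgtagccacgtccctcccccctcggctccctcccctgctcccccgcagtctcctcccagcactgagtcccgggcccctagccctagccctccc
Col3a1: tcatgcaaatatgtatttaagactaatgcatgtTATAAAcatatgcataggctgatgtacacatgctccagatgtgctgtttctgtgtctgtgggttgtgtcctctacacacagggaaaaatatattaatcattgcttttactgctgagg
Rgs5: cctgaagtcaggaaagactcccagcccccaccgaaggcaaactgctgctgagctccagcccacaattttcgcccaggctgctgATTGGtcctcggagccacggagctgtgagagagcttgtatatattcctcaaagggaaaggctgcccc
The CCAAT match began 109 bases before the start in Col1a2, the TATAAA match 117 bases before it in Col3a1, and the reverse-strand CCAAT match 67 bases before it in Rgs5. Within 250 bases before the start, on either strand, CCAAT was found in 3 of 10 promoters of the collagen genes and in 33.9% of 32851 mouse promoters. TATAAA was found in 1 of the 10 and in 12.4% of all. These matches describe letters only.

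The stromal cells held few UMIs beside the endocrine cells, with 1015 to 6873 each and a median of 1815, against 1312 in endothelial cells and 6003.5 over all kept cells. The median was 1456.5 and 2018 UMIs in HC mice 1 and 2, and 1804, 1495 and 1814 in chow mice 1, 2 and 3. The median mitochondrial share was 2.78%. Libraries held 28722244 to 39624978 UMIs in 4452 to 6087 barcodes. Between libraries, 64 barcodes of kept cells were shared, and 0 of those belonged to stromal cells.

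Of the markers given for these cells, the choice of cells had used Col1a1, Col3a1 and Dcn, which were read in 92.5%, 99.1% and 91.5% of the 212 cells. Among the markers it had not used, Mgp, matrix Gla protein, an inhibitor of calcification, was read in 89.6% and Lum in 89.2%, but Rgs5 in 15.1%. When every cell was thinned to 1000 UMIs, Mgp was read in 87.7% of stromal cells against 7.13% of endothelial cells, and Lum in 79.7% against 0%. In 2000 hormone-rich cells sampled as a background for free RNA, Mgp was read in 0.7% before thinning (0.25% after), Lum in 0.05% (0.05%) and Rgs5 in 1.05% (0.1%). Mgp and Lum thus went with the label in most cells, and Rgs5 in a minority. Of the endothelial markers that the choice of cells had not used, Pecam1 and Cdh5 had 0 UMIs in the 212 cells, which allows up to 3 for each. Macrophage markers gave 25 UMIs in all over 7 of 11 genes, and acinar markers 219 UMIs over 14 of 15.

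The fibroblast genes and pericyte genes divided the cells unevenly. A cell passed the fibroblast gate with at least 2 UMIs of Lum and Dcn together and at least 2 times as many as of Rgs5 and Pdgfrb. The pericyte gate was the mirror image. The fibroblast gate took 182 of the 212 cells and the pericyte gate 9. Another 9 held both kinds of transcript within the ratio, and 12 had no UMI of any of the 4 genes. Of the 182, 117 had no UMI of Rgs5 or Pdgfrb.

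**Figure D1:**
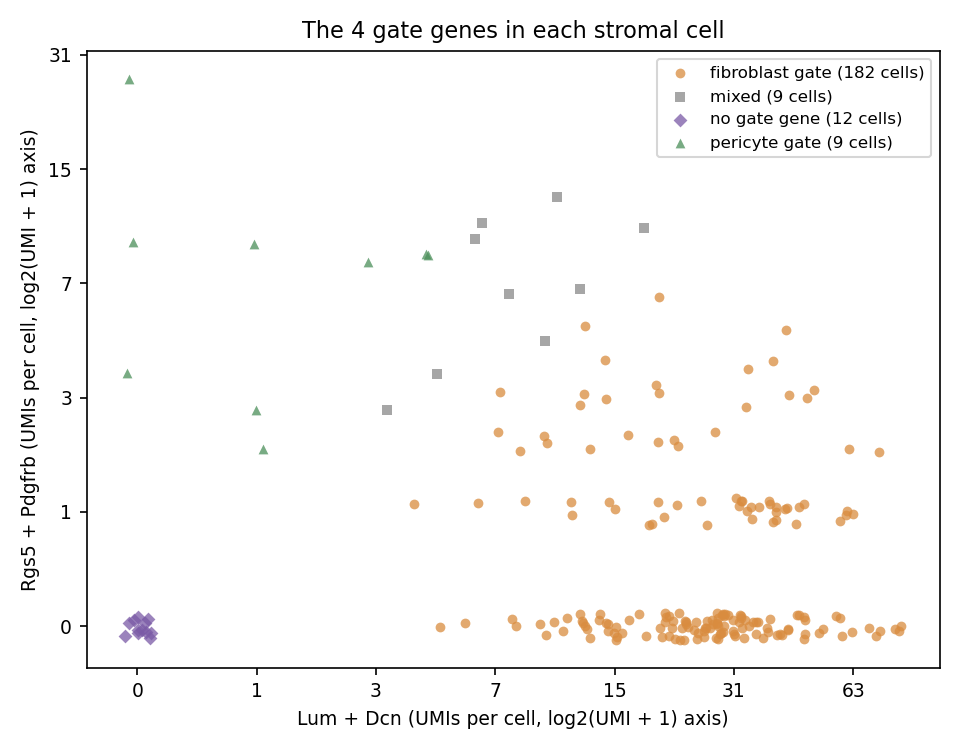
Each point is 1 of the 212 stromal cells, with the UMIs of Lum and Dcn together on the horizontal axis and of Rgs5 and Pdgfrb together on the vertical axis, both on log2(UMI + 1) axes with slight jitter. The 182 fibroblast-gate cells spread along the bottom, the 9 pericyte-gate cells stand at the upper left and the 12 cells with no gate gene lie at the origin.

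The fibroblast-gate cells were dominated by matrix transcripts. Pooled over mice, they held 18525 CPM (UMIs of a gene per 1000000 UMIs of the class) of Mgp, 10458 of Dcn, 9155 of Sparc, a collagen-binding matricellular protein, and 8704 of Gsn, which encodes the actin-severing protein gelsolin. Fibrillar collagens followed, with 7725 CPM of Col3a1, 4422 of Col1a2 and 3603 of Col1a1. These values count 3′ ends and are not corrected for gene length. Dcn was read in every one of these cells, with 3 to 70 UMIs and a median of 22. Mgp ran from 0 to 296 UMIs with a median of 32, and 174 of 182 cells had at least 1.

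Other fibroblast genes were read in part of the cells. Clec3b, which encodes the plasminogen-binding protein tetranectin, was read in 117 of 182 cells. C3, the central complement component, was read in 83, and Mfap5, a microfibril glycoprotein, in 90. The chemokine Ccl19 was read in 45, and Pi16, a marker of fibroblasts found in many mouse tissues, in 42. At the median of 1839 UMIs in these cells, a cell without a UMI cannot be told apart from one with a low level.

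Fibroblast-gate cells covered a range in Mfap5, and its ends differed in many other genes. This range was chosen after its values were seen and has no test. In 56 cells Mfap5 made up at least 0.1% of UMIs, in 92 it was 0, and 34 lay between. The Mfap5-rich cells held 5748 CPM of Col1a1 and 10927 of Col3a1, against 1867 and 4766 in the cells without Mfap5. The protease inhibitor Timp1 stood at 2056 against 143, fibronectin (Fn1) at 632 against 56.0, periostin (Postn) at 792 against 124, thrombospondin 4 (Thbs4) at 672 against 87.1, and Pi16 at 339 against 37.3. Mfap5-rich cells thus held more of several secreted adhesion proteins and of type I and III collagen.

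The opposite end of the range carried another set. Hsd11b1, the enzyme that regenerates active glucocorticoid, stood at 91.9 CPM in Mfap5-rich cells and at 964 in cells without Mfap5. Gdf10, a TGF-β family ligand, stood at 121 against 921, the chemokine Cxcl12 at 91.9 against 709, the complement gene C4b at 184 against 722 and vitronectin (Vtn) at 68.9 against 529. Gsn stood at 5403 against 11193. Pooled over mice, Dcn stood at 9434 against 11044, Lum at 2745 against 2402 and Mgp at 19476 against 18416.

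The 2 mice with the most fibroblast-gate cells were also read apart. All genes named above for either end kept their directions within each, other than Dcn, Lum and Mgp. In HC mouse 2, Mfap5-rich cells held 1119 CPM of Timp1 and 38.2 of Hsd11b1, against 182 and 768 in cells without Mfap5. In chow mouse 3 the values were 2084 and 83.4, against 206 and 998. Mgp and Dcn went opposite ways in these mice. Mgp stood at 26240 in Mfap5-rich cells against 16845 in cells without Mfap5 in HC mouse 2, but at 13852 against 16725 in chow mouse 3. Dcn stood at 11219 against 10183 in HC mouse 2 and at 8198 against 13042 in chow mouse 3. Lum stood at 3345 against 2416 in HC mouse 2 and was nearly level in chow mouse 3, at 2376 against 2443. The contractile gene Tagln was nearly level in HC mouse 2, at 509 against 517, and stood at 2668 against 68.8 in chow mouse 3. Depth moved with the range: the median was 2931.5 UMIs in Mfap5-rich cells and 1524.5 in cells without Mfap5, and its part in the result was not tested. Mfap5-rich cells were 5 of 10 and 29 of 89 fibroblast-gate cells in HC mice 1 and 2, and 2 of 21, 3 of 23 and 17 of 39 in chow mice 1, 2 and 3.

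The 9 pericyte-gate cells were too few for a test, with 2 and 1 in HC mice 1 and 2 and 1, 2 and 3 in chow mice 1, 2 and 3. Their 13236 UMIs are described as a pool with exact Poisson 95% intervals, which cover counting error only. Rgs5, used by the gate, had 64 UMIs. Pdgfrb, also used by the gate, had 14 UMIs or 1058 CPM. The fibroblast pool held 90 UMIs of Pdgfrb, or 218 CPM, so Pdgfrb was not confined to the pericyte gate. In chow mouse 3, 1 cell passed the gate with 3 UMIs of Pdgfrb and 0 of Rgs5. Genes the gate did not use included Ndufa4l2, a mitochondrial protein that marks pericytes, with 27 UMIs or 2040 CPM (1344 to 2968), against 313 in the fibroblast pool. Vtn had 22 UMIs or 1662 CPM (1042 to 2516), against 334. Smooth muscle actin, Acta2, had 17 UMIs or 1284 CPM (748 to 2056), against 397. In each of these genes the fibroblast level lay below the pericyte interval, which leaves out the spread between cells and mice. Acta2 was read in 5 of the 9 cells, and the cell of HC mouse 2 held 8 of its 17 UMIs.

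Ccl19, a chemokine that attracts cells bearing Ccr7, was abundant in the pericyte-gate pool. It had 48 UMIs or 3626 CPM (2674 to 4808), against 199 in the fibroblast pool. The HC cells held 19, 17 and 3 Ccl19 UMIs, and the 6 chow cells 0, 5, 3, 0, 0 and 1. Most of the transcripts thus came from the pair of cells of HC mouse 1. These cells held 8 and 2 UMIs of Rgs5 and Pdgfrb, against 3 and 1 of Lum and Dcn. At a gate ratio of 4, HC mouse 1 had 0 pericyte-gate cells. Mgp was as high as in fibroblasts, with 225 UMIs or 16999 CPM. Clec3b and C3 had 0 UMIs, which at this depth allows up to 227 CPM, and stood at 882 and 843 in fibroblasts.

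The collagen threshold left out most cells with pericyte transcripts. Outside it, 103 cells that met the other limits had at least 5 UMIs of Rgs5 and Pdgfrb, at least 2 times as many as of Lum and Dcn. Of these, 56 also held more than 2 UMIs of the epithelial genes Krt8, Krt18 and Epcam and had a median of 8494 UMIs. The other 47 had a median of 1149 UMIs and held 532 UMIs of Rgs5, 953 of Mgp, 196 of Ndufa4l2, 166 of Acta2 and 73 of smooth muscle myosin Myh11. They held 0 UMIs of Ccl19, Lum and Dcn. HC mice 1 and 2 had 7 and 9 of them, against 16, 10 and 5 in chow mice 1, 2 and 3. These 47 cells held 35 UMIs of Col3a1 and 25 of Col1a2, with a median collagen and decorin sum of 1. The pericyte-gate cells are therefore those pericyte-marked cells that reach the collagen threshold, not all pericytes of these islets.

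The 12 cells with no gate gene lacked Mgp and mostly held Schwann cell transcripts, which goes against the label. They had 0 UMIs of Mgp, while 0 UMIs of Dcn, Lum and Rgs5 follow from their definition. Of the rule's genes, Col1a1 was read in 12 of the 12 (27 UMIs) and Col3a1 in 11 (21 UMIs). Their sums of collagen and decorin UMIs were only 5 to 16. At least 1 UMI of the Schwann cell markers Sox10, S100b, Cdh19, Gfra3 and Foxd3 was found in 11 of the 12, with a median of 4.5 and a range of 0 to 11. At least 1 such UMI was found in 7 of 182 fibroblast-gate cells, 0 of 9 pericyte-gate cells and 3 of 813 endothelial cells. It was also found in 438 of 19858 cells with at least 20% hormone UMIs. Among the 11, 1 cell of chow mouse 2 had 19.7% hormone UMIs, with 1125 UMIs of Gcg, 5 of Gfra3 and 0 of Cryab. Gfra3, a receptor subunit for artemin, had 28 UMIs in the 12 cells, and the neural crest factors Foxd3 and Sox10 had 14 and 8. Cryab, a small heat shock protein, had 88, and apolipoprotein E (Apoe) had 872, or 35462 CPM. They were 0 and 5 of the cells in HC mice 1 and 2, and 4, 3 and 0 in chow mice 1, 2 and 3. The gene tests below, for diet and against endothelial cells, were also run on the fibroblast-gate cells alone, which leaves these 12 cells out. The stromal, pericyte-gate and insulin shares below keep them.

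**Figure D2:**
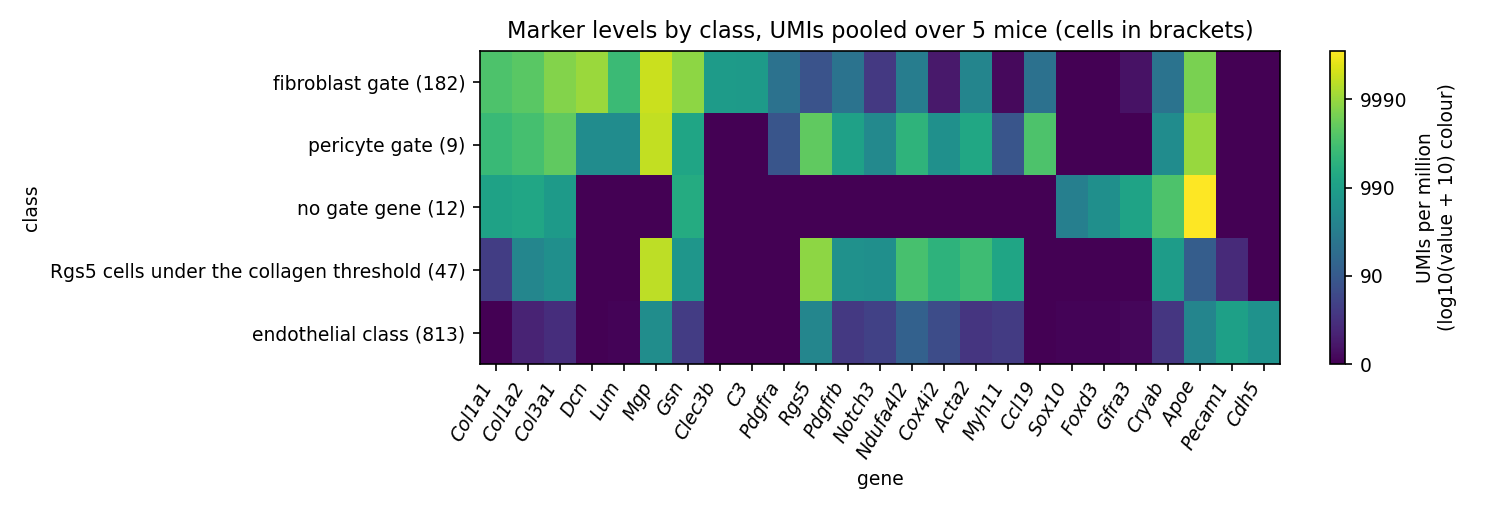
Marker levels in CPM, pooled over the 5 mice, for each class of cell (rows, with cell numbers) and gene (columns), on a log10(value + 10) colour scale. The gate genes Dcn and Lum are highest in the fibroblast-gate row. Rgs5, also a gate gene, is high in the pericyte-gate row but highest in the row of Rgs5 cells under the collagen threshold. Ccl19 is highest in the pericyte-gate row, mostly from HC mouse 1, and Gfra3 and Foxd3 in the row of 12 cells with no gate gene.

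The first diet question was whether the share of stromal cells differed between mice on hydrolyzed casein and mice on chow. They were 14 and 97 cells in HC mice 1 and 2, against 29, 29 and 43 in chow mice 1, 2 and 3, so HC mouse 2 alone gave 45.8% of all stromal cells. As a share of kept cells they were 0.290% (exact binomial 95% interval 0.159 to 0.487) and 2.20% (1.79 to 2.67) in HC mice 1 and 2. The shares of chow mice 1, 2 and 3 were 0.793% (0.532 to 1.14), 0.566% (0.380 to 0.812) and 0.906% (0.656 to 1.22). The HC mice held both the lowest and the highest share.

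The mean was 1.24% ± 1.35 on HC (SD, n = 2) and 0.755% ± 0.173 on chow (SD, n = 3), and an exact two-sided permutation test over all 10 regroupings gave p = 0.7 (0.9 adjusted over 3 such tests). The smallest p this design allows is 0.1. The difference was 0.489 percentage points in all mice, −0.503 between the FUN libraries and 1.46 between the SKY libraries. Leaving out HC mouse 2 gave −0.465, leaving out HC mouse 1 gave 1.44, and taking the diet from the title gave −0.826. Endothelial cells were 2.84% and 6.32% of kept cells in HC mice 1 and 2, against 3.86%, 3.4% and 1.73% in chow mice 1, 2 and 3. Shares also depend on handpicking and dissociation, and fewer stromal cells cannot be told apart from fewer released cells.

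**Figure D3:**
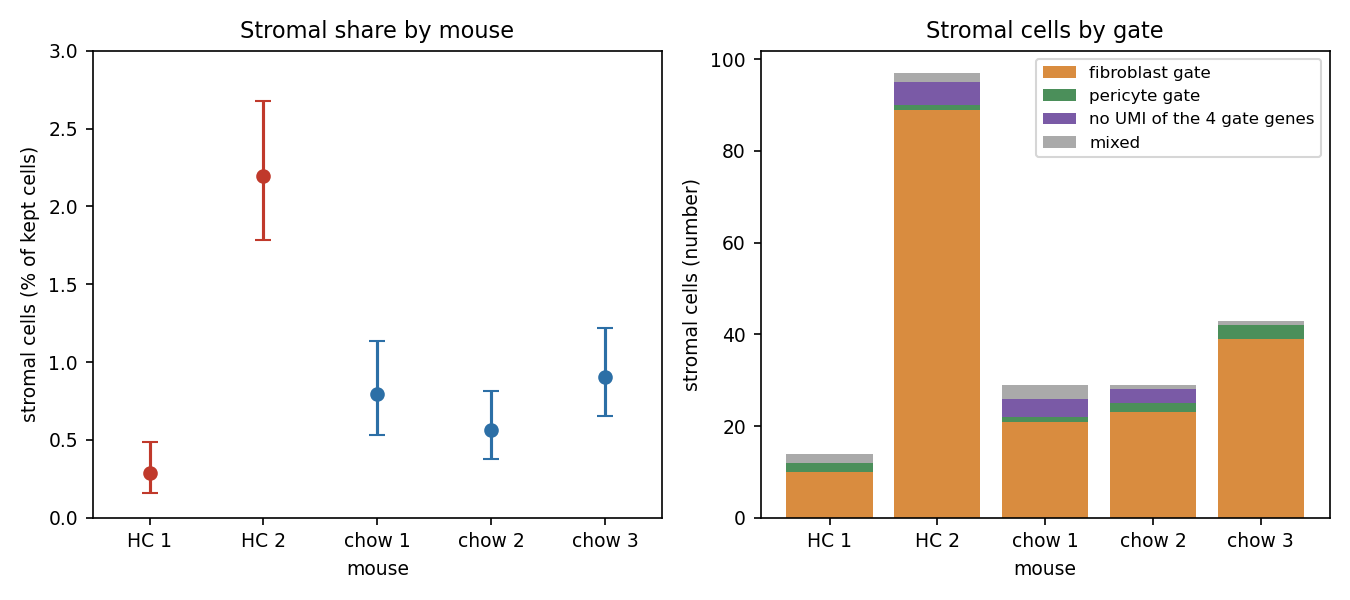
Left, stromal cells as a percentage of kept cells in each mouse, with exact binomial 95% intervals. Right, the number of stromal cells by gate in each mouse. HC mice 1 and 2 lie at 0.290% and 2.20%, on either side of the chow mice, and fibroblast-gate cells make up most of every bar.

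Pericyte-gate cells were 14.3% and 1.03% of stromal cells in HC mice 1 and 2, against 3.45%, 6.90% and 6.98% in chow mice 1, 2 and 3. The mean was 7.66% ± 9.37 on HC (SD, n = 2) and 5.77% ± 2.01 on chow (SD, n = 3; exact two-sided permutation p = 0.9, 0.9 adjusted over the 3 tests). The HC values again lay on both sides of the chow values, and each rests on 1 to 3 cells. Without HC mouse 1 the difference of 1.88 percentage points turned to −4.74, and between the SKY libraries it was −5.91.

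Insulin transcripts in the stromal droplets were lower in both HC mice than in any chow mouse. The median stromal cell had 0.369% and 0.397% of its UMIs in Ins1 and Ins2 in HC mice 1 and 2, against 0.941%, 2.01% and 0.529% in chow mice 1, 2 and 3. The difference was −0.779 percentage points, with means of 0.383% ± 0.020 on HC (SD, n = 2) and 1.16% ± 0.767 on chow (SD, n = 3). It was −0.573 between the FUN libraries and −0.875 between the SKY libraries. The exact two-sided permutation test gave p = 0.2 (0.6 adjusted over the 3 such tests). In the summed counts described below, both HC mice lay below all chow mice for 7.26% of 951 genes. Endothelial cells of the same mice had medians of 0.338% and 0.650% in HC mice 1 and 2, against 0.992%, 2.33% and 0.854% in chow mice 1, 2 and 3. Insulin is not made by stromal or endothelial cells, and the part of free RNA in this difference was not tested. The choice of cells caps the hormone share at 20%, so these values are a description.

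The second diet question was whether stromal cells differed in expression, tested on UMIs summed per mouse with edgeR's quasi-likelihood test. Of 951 genes tested, 0 passed an adjusted p of 0.05 (0% called), and DESeq2 also called 0. At an unadjusted p under 0.05 there were 10 genes, or 1.05% of those tested. On data simulated from these sums, the test recovered 14.1% of genes changed 2-fold, 85.7% changed 4-fold and 96.8% changed 8-fold. A change of about 2-fold was therefore mostly not detectable with these mice and depths.

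The structural genes gave wide overlap between diets. Dcn stood at 5511 and 10315 CPM in HC mice 1 and 2, against 10073, 7741 and 9039 in chow mice 1, 2 and 3. Mgp (ENSMUSG00000030218; chr6:136872435-136875823) stood at 12279 and 18843 in HC mice, against 18458, 19324 and 15142 in chow mice. Col3a1 stood at 6399 and 7111 in HC mice, against 4355, 3861 and 10344 in chow mice. In all 3 genes the HC and chow values overlapped, and the log2 differences were −0.20 (SE 0.313) for Dcn, −0.22 (SE 0.296) for Mgp and 0.10 (SE 0.378) for Col3a1.

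The remaining marker genes were alike in this respect. The log2 difference was 0.16 (SE 0.418) for Col1a1, 0.13 (SE 0.356) for Col1a2, −0.16 (SE 0.348) for Lum, −0.05 (SE 0.721) for Rgs5 and 0.30 (SE 0.355) for Pdgfrb. Chow mouse 3 had the highest Col1a1, at 5230 CPM, above 3588 and 3172 in HC mice 1 and 2, while chow mice 1 and 2 had 1861 and 1769. The collagens thus varied more among chow mice than between the diets.

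Gene lists moved little as groups, with 0 members called in any. Medians of the log2 difference are set here beside −0.01 over the 943 tested genes that the choice of cells did not use. Gene values between the FUN or the SKY libraries, here and below, are log2 ratios of CPM with a constant added to both sides. They lack edgeR's scaling and are not on the same scale as the values in all mice. Over the 943 genes their medians were 0.09 in FUN and −0.03 in SKY. For the 8 tested collagens other than the rule's, the median was −0.17 in all mice, 0.37 between the FUN libraries and −0.23 between the SKY libraries. For elastic fibres and microfibrils it was 0.30 over 13 tested of 15, with 11 above 0, and 0.65 in FUN and 0.02 in SKY. Matricellular proteins gave 0.29 over 9 of 11 (0.66 in FUN, 0.13 in SKY), and proteases and their inhibitors 0.34 over 8 of 12 (−0.31 in FUN, 0.28 in SKY). Complement gave 0.08 over 5 of 10 (0.24 in FUN, 0.07 in SKY). Contractile genes gave 2.07 in FUN and −1.06 in SKY. The sign for collagens, proteases and contractile genes therefore depended on the libraries compared.

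C1rb had the smallest p of the genes with higher values in HC mice. C1rb, a paralog of the complement protease C1r, stood at 407 and 263 CPM in HC mice 1 and 2, against 153, 76.1 and 88.2 in chow mice 1, 2 and 3. Both HC values lay above all chow values, as they did for 6.31% of the 951 genes. The log2 difference was 1.55 (SE 0.460, edgeR adjusted p = 0.999). By the CPM ratio it was 1.17 between the FUN and 1.25 between the SKY libraries. Its near-identical copy C1ra, which can share reads with it, stood at 0 and 86.2 in HC mice, against 307, 152 and 132 in chow mice, so the division of reads between the copies is uncertain.

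Igfbp6, a binding protein that favours IGF-II, stood at 851 and 504 CPM in HC mice 1 and 2, against 57.6, 266 and 414 in chow mice 1, 2 and 3 (log2 difference 1.27, SE 0.555, edgeR adjusted p = 0.999). In HC mouse 1 these were 23 UMIs from 2 of 14 cells, 15 of them in 1 cell. By the CPM ratio the difference was 3.07 between the FUN and 0.50 between the SKY libraries. In edgeR, leaving out each mouse in turn gave 0.83 to 1.91. Ly6a, which encodes the surface protein Sca-1 of many mouse fibroblasts, stood at 1405 and 1307 in HC mice, against 748, 609 and 1032 in chow mice (0.72, SE 0.323). Hsd11b1 stood at 259 and 349 in HC mice, against 902, 742 and 370 in chow mice (−1.10, SE 0.476), and both HC values lay below all chow values, as they did for 7.26% of genes. For these 3 genes the groups did not overlap, but the adjusted p was 0.999 for each. In the lower direction Ins1, Ins2, Rcn1 (−1.15) and Tax1bp1 (−1.0) had a smaller p than Hsd11b1, and Ywhaq (−0.81) and Slc25a5 (−0.84) followed it. Pdgfrl (1.06) and 1810058I24Rik (0.88) were the others of smallest p in the higher direction, with adjusted p = 0.999 (edgeR). Pdgfrl turned to −0.21 without HC mouse 2.

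**Figure D4:**
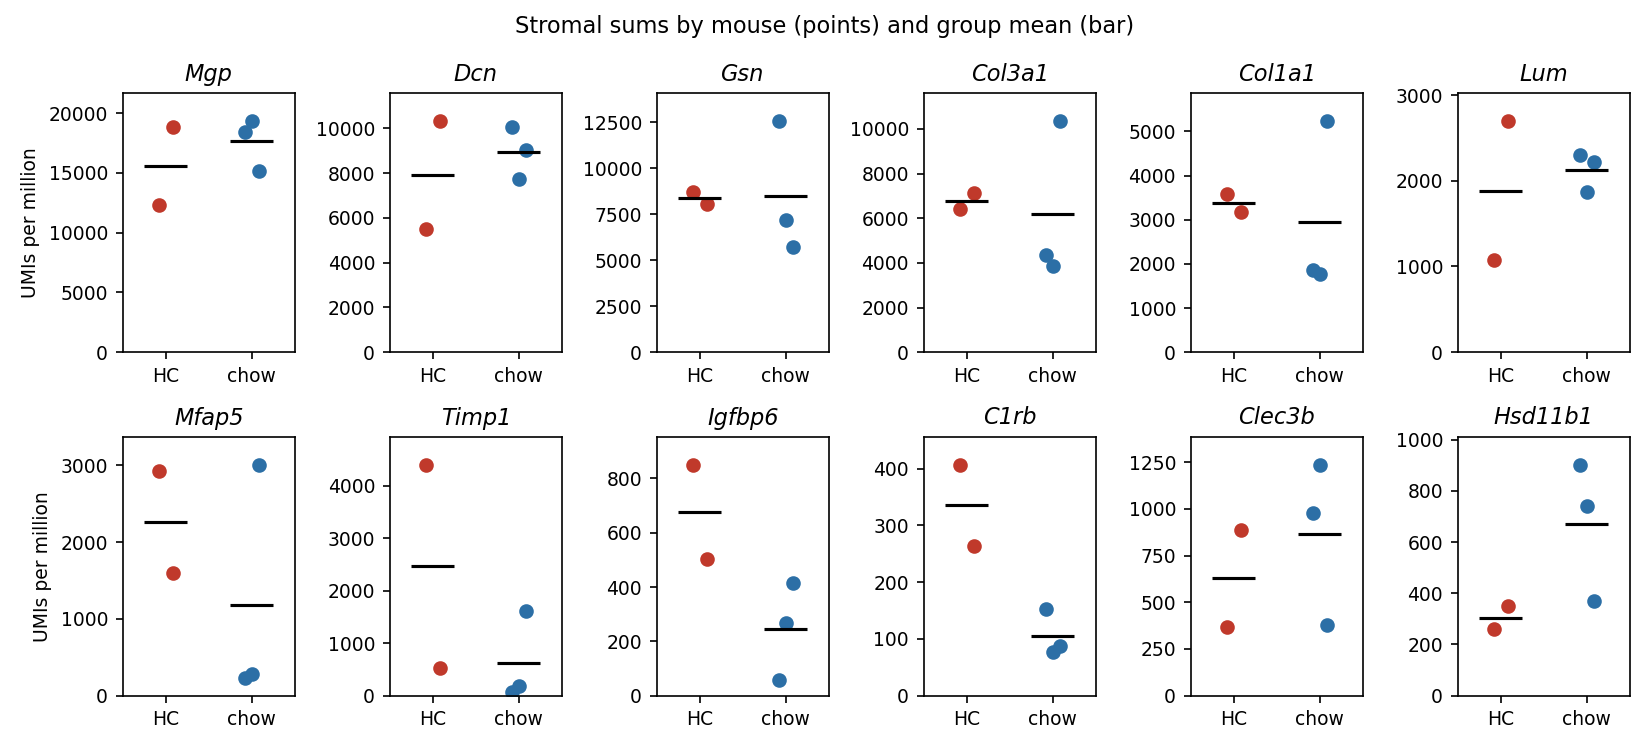
CPM in the summed stromal cells of each mouse (points) with the group mean (bar), on linear axes from 0, for 12 genes. HC and chow ranges overlap for Mgp, Dcn, Col3a1 and Lum, and for Dcn and Lum the HC points lie on either side of all chow points. Both HC points lie above the chow points for Igfbp6 and C1rb and below them for Hsd11b1.

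Several large mean differences came with a wide spread between mice or rested on single cells. Mfap5 stood at 2922 and 1602 CPM in HC mice 1 and 2, against 230, 285 and 3007 in chow mice 1, 2 and 3, so chow mouse 3 was the highest of all (log2 difference 0.85, SE 1.35). Timp1 stood at 4401 and 536 in HC mice, against 76.7, 190 and 1623 in chow mice, and 1 cell gave 90 of the 119 UMIs in HC mouse 1. The chemokine Ccl2 stood at 2071 and 259 in HC mice, against 0, 0 and 176 in chow mice, and 1 cell gave 53 of the 56 UMIs in HC mouse 1. Glucagon (Gcg) stood at 481 and 3603 in HC mice, against 365, 29500 and 362 in chow mice, and 1 cell gave 1125 of the 1551 UMIs in chow mouse 2. With 14 to 97 cells per mouse, 1 cell can set the level of such a gene.

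The fibroblast-gate cells alone gave the same count. Of 683 genes tested, 0 passed (0% called), and 6, or 0.878%, had an unadjusted p under 0.05. C1rb stood at 471 and 272 CPM in HC mice 1 and 2, against 207, 75.7 and 93.5 in chow mice 1, 2 and 3 (log2 difference 1.48, SE 0.596). Hsd11b1 stood at 283 and 364 in HC mice, against 1110, 985 and 365 in chow mice (−1.25, SE 0.534). For both genes the HC and chow values still did not overlap, although HC mouse 2 and chow mouse 3 were almost level in Hsd11b1.

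Stromal cells were next set against the endothelial cells of the same islets, the other vascular and connective class, with the mouse as a block. An endothelial cell had at least 5 UMIs of Plvap, Flt1, Kdr and Emcn, at most 2 of the collagen and decorin genes, at most 2 of the C1q genes and less than 20% hormone UMIs, which gave 813 cells. Of 3237 genes, 1420 (43.9%) passed an adjusted p of 0.05 in edgeR (49.7% had an unadjusted p under 0.05), 669 (20.7%) higher and 751 (23.2%) lower in stromal cells. Without HC mouse 2 the counts were 387 and 513. Both classes were chosen by transcripts of these same cells, so genes that go with collagen or with endothelial genes had to differ, and the values describe the stromal profile.

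The genes most enriched in stromal cells, other than those of the rule, encode secreted or matrix proteins. Mfap5 averaged 1609 ± 1354 CPM in stromal cells (SD, n = 5) and had 0 UMIs in endothelial cells, and its 800 UMIs pooled over the stromal cells of all mice were at least 796-fold higher than 3 counts over the endothelial class, each relative to its class total. By the same pooled bound, Clec3b was at least 362-fold higher, the microfibril protein Mfap4 at least 458-fold, dermatopontin (Dpt) at least 274-fold, the collagen VI chain Col6a3 at least 314-fold, the chemokine Cxcl14 at least 352-fold and Cilp at least 267-fold. Lum averaged 2031 ± 612 in stromal cells and had 1 UMI in all endothelial cells (log2 difference 10.68, SE 0.29, adjusted p = 1.25e-25).

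The genes most depleted in stromal cells, other than those of the rule, had 0 UMIs in the stromal sums, while the endothelial marker Egfl7 had 3. Rgcc, a regulator of the cell cycle, averaged 0 in stromal cells and 3130 ± 211 CPM in endothelial cells (SD, n = 5), at least 485-fold lower in stromal cells by the pooled bound. Rbp7 was at least 399-fold lower and the proteoglycan Esm1 at least 341-fold lower. The junction genes Pecam1 and Cdh5 and the phosphatase Ptprb were at least 160-fold, 99.0-fold and 126-fold lower. Cd300lg, Podxl, Mmrn2 and Adgrl4 also had 0 UMIs in the stromal sums.

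The 2 classes divided the matrix between them. All 5 tested small leucine-rich and large proteoglycans were higher in stromal cells, as were 7 of 8 tested collagens and 11 of 12 elastic-fibre genes, against 665 of all 3224 tested genes outside the rule. Their median log2 differences were 6.19, 6.89 and 4.85, with genes at 0 in endothelial cells set to their bound, and the median of all genes was −0.01. Biglycan (Bgn) stood at 3699 and 3036 CPM in stromal cells of HC mice 1 and 2, and at 2859, 2682 and 4224 in those of chow mice 1, 2 and 3, against 17.0 to 111 in endothelial cells. Collagen-processing genes were higher in 8 of 9, among them Pcolce, the enhancer of procollagen C-proteinase (6.35), and the collagen chaperone Serpinh1 (1.31).

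The basement membrane list did not follow the fibrillar genes. Of its 11 tested members, 4 were higher and 5 lower in stromal cells, with a median of −0.37. Of all 3224 tested genes outside the rule, 665 were higher and 745 lower, with a median of −0.01. Col4a1, a chain of network collagen IV, stood at 1553, 762, 1343, 1464 and 847 CPM in stromal cells of HC mice 1 and 2 and chow mice 1, 2 and 3, against 3473, 3166, 3393, 3487 and 2725 in endothelial cells of the same mice. It was lower in stromal cells in 5 of 5 mice (log2 difference −1.36, SE 0.14, adjusted p = 3.05e-10), as were Col4a2 (−1.31) and perlecan, Hspg2 (−0.76). The laminin chain Lama2 (5.48) and nidogen 1, Nid1 (0.71) were higher. Timp3 (−1.34) was lower in stromal cells, while Timp1 (7.74) and Timp2 (5.61) were higher.

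**Figure D5:**
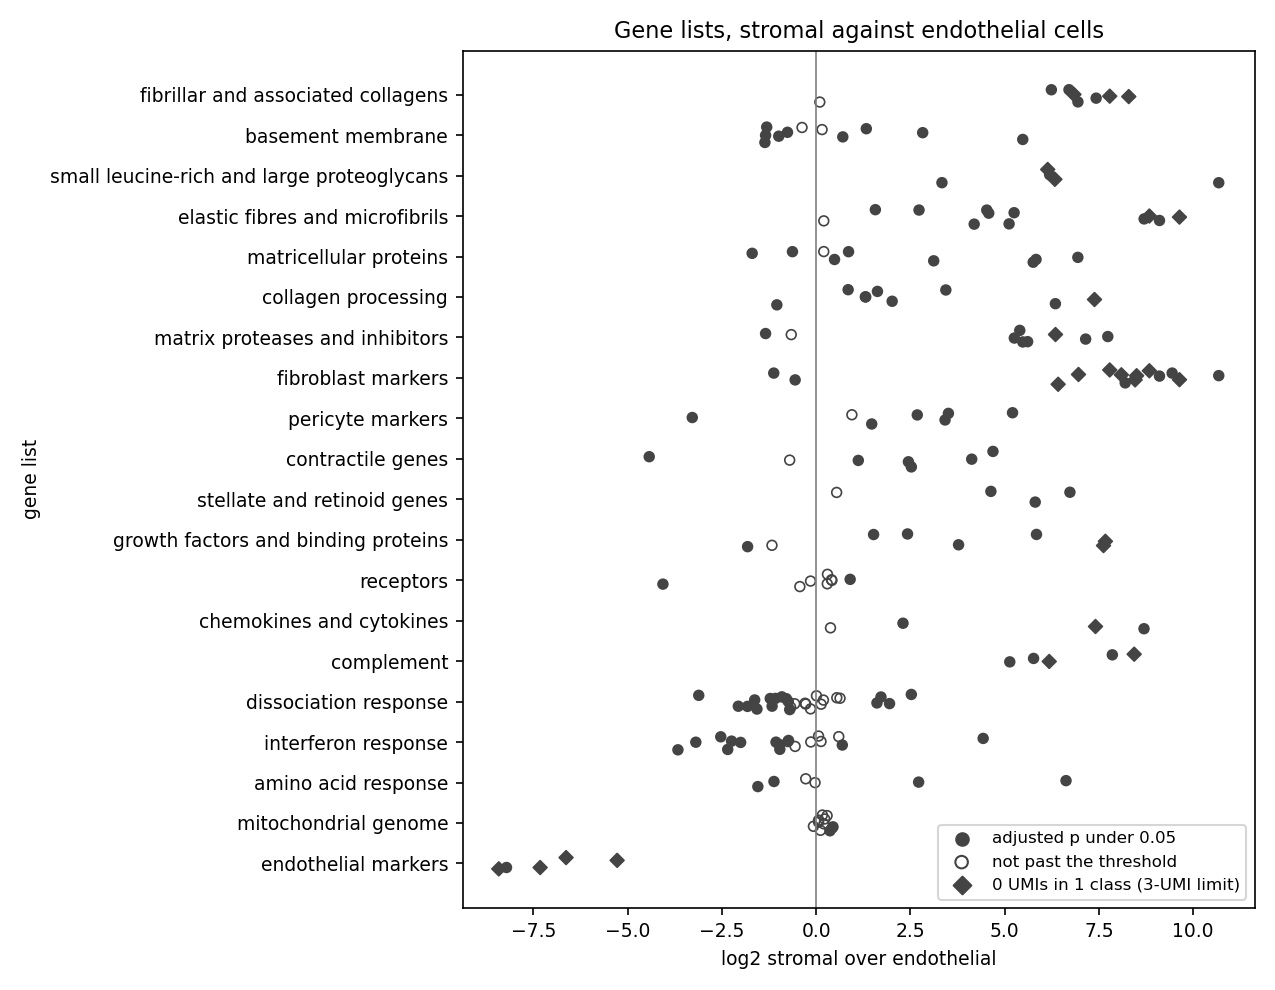
Log2 difference of stromal over endothelial cells for each tested gene of each list, filled where the adjusted p was under 0.05, open where it was not, and a diamond where 1 class had 0 UMIs and the gene was set to its bound. Proteoglycans and complement genes lie to the right of 0, as do the collagens and all fibroblast markers but Cd34 and Ly6a, basement membrane genes lie on both sides and endothelial markers far to the left.

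Tested complement genes were higher in stromal than in endothelial cells, and macrophages were not part of this comparison. Of 10 listed genes 5 were tested, and all 5 were higher in stromal cells, with a median of 6.18, against 665 higher of all 3224 genes. C3 (ENSMUSG00000024164; chr17:57203967-57228136) stood at 407 and 808 CPM in stromal cells of HC mice 1 and 2 and at 307, 285 and 1129 in those of chow mice 1, 2 and 3, against 0 UMIs in endothelial cells, at least 346-fold higher. Serping1, the C1 inhibitor, stood at 1036, 1575, 1324, 1408 and 1596 in stromal cells of the same mice, against 39.2, 14.6, 49.9, 19.2 and 15.1 in endothelial cells (5.77, SE 0.26). Factor B, Cfb (5.14), and C4b (7.86) were also higher.

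Secreted signals were higher in stromal cells in most tested members. Against 665 of 3224 genes higher and 745 lower in all, growth factors and their binding proteins were higher in 6 of 8 and lower in 1, with Igfbp5 at 5.85, Igf1 at 3.78 and Igfbp3 at −1.82. Chemokines were higher in 3 of 4, among them the eosinophil attractant Ccl11 (8.70) and Ccl19, at least 168-fold. Cxcl12, which both classes transcribe, gave 0.38 and did not pass. Ccl19 stood at 2108 and 222 CPM in stromal cells of HC mice 1 and 2 and at 633, 380 and 88.2 in those of chow mice 1, 2 and 3, against 0 UMIs in endothelial cells.

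Stress and interferon lists had more lower than higher members, where 745 of all 3224 genes were lower and 665 higher. Of 26 tested dissociation-response genes, 4 were higher and 12 lower in stromal cells, with a median of −0.62. Hspb1, a small heat shock protein, stood at 0, 154, 173, 266 and 194 CPM in stromal cells of HC mice 1 and 2 and chow mice 1, 2 and 3, against 1151, 1723, 1658, 2332 and 1370 in endothelial cells (−3.11, SE 0.19). Of 18 interferon-response genes, 2 were higher and 10 lower, with a median of −0.85. The immunoproteasome gene Psmb8 stood at 148, 150, 153, 114 and 141 in stromal cells, against 981, 852, 667, 579 and 749 in endothelial cells (−2.24, SE 0.20), while the interferon-induced membrane protein genes Ifitm1 (4.43) and Ifitm3 (0.70) were higher.

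Markers given to fibroblasts and pericytes were not all stromal in this comparison, where 665 of all 3224 genes were higher and 745 lower. Fibroblast markers were higher in 12 of 14, but Cd34 (−1.12) and Ly6a (−0.55), both also made by endothelium, were lower. Pericyte markers were higher in 5 of 7, with Vtn at 5.21, while Mcam (−3.28) was lower. Rgs5 stood at 925, 159, 652, 475 and 256 CPM in stromal cells of HC mice 1 and 2 and chow mice 1, 2 and 3, against 1040, 38.9, 634, 219 and 53 in endothelial cells (0.95, SE 0.39, edgeR adjusted p = 0.086). It was thus no higher in stromal than in endothelial cells in HC mouse 1 and nearly level in chow mouse 1. Mgp, at 12279 to 19324 in stromal cells, stood at 945 and 99.8 in endothelial cells of HC mice and at 1062, 468 and 0 in those of chow mice. HC mouse 1 and chow mouse 1 were the highest for both genes in endothelial cells, and the part of shared or free RNA was not tested.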

How the data were processed

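Single-cell RNA was measured with the 10x Genomics 3′ v3 assay in islets of 5 mice, 2 on hydrolyzed casein and 3 on chow, 1 library each. The deposited matrices hold raw UMI counts of 32285 genes per barcode, made with Cell Ranger 4.0.0 on mm10 per the submitters' processing notes. How cells were called and the annotation release are not given in the sources used here. Labels do not say whether mice were littermates or shared cages, and p-values measure the spread between these mice.

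The members and gene lists were chosen with earlier results of these data known, and a few list genes are not reported here and were left out of the lists' counts. Cells were filtered at 1000 UMIs, 500 genes and 15% mitochondrial UMIs, and doublets were not called. Over all 10 pairs of libraries, counts differed beyond sampling noise (chi-square per degree of freedom at least 11.2 over kept cells and 2.63 over stromal cells). Counts were summed per mouse and class, with at least 10 cells per mouse, filtered with filterByExpr, scaled with TMM and tested with edgeR 4.0.16 (quasi-likelihood, Benjamini-Hochberg over all genes tested). The comparison of stromal with endothelial cells had the mouse as a block, since both classes come from the same animals. DESeq2 1.42.0 was an alternative. Pericyte-gate fits were not possible with at most 3 cells per mouse. Shares were compared with exact two-sided permutation tests. Intervals cover counting error only, and a count of 0 was set to 3 counts for bounds. Named genes were those of the rule and its markers, up to 10 per direction of largest change with at least 100 CPM (UMIs per 1000000), or, where fewer than 5 passed, the 5 of smallest p, and in each list those of highest level or smallest p. The tests were tested on simulated data. Python 3.11.15, R 4.3.3, scipy 1.17.1 and matplotlib 3.10.9 were used.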

Additional observations from a re-analysis of the deposited data

How the results depend on the processing

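With 2 HC and 3 chow mice, 14 stromal cells in HC mouse 1 and 1 library that gives 45.8% of the cells, the diet comparisons detect large changes only, and the title of HC mouse 2 goes against its diet label. No gene passed for diet in edgeR or DESeq2, nor with RLE scaling, the collagen threshold at 10, hormones under 5%, prefix or age as a term, or diet by title. With no filter on low counts 1 gene passed in stromal cells (Clu) and 1 in fibroblast-gate cells (Ccl2). Leaving out each mouse gave 0 to 4 genes in stromal cells (1 without HC mouse 1, Spp1; 4 without chow mouse 3, Ins1, Ins2, Mfap5 and Thbs4) and 0 to 2 in fibroblast-gate cells (1 without HC mouse 1, Spp1; 2 without chow mouse 3, Ins1 and Mfap5). The cause was not tested. In HC mouse 2, 1 cell held 66 of 115 Spp1 UMIs and 34 of 51 Clu UMIs.

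The stromal share difference of 0.489 percentage points became −0.826 by title, −0.503 between FUN libraries and −0.465 to 1.44 without each mouse in turn. The pericyte-gate share difference of 1.88 became −5.91 between SKY libraries, −4.74 to 8.51 without each mouse and −2.18 at a gate ratio of 4, an alternative chosen after seeing the data. It became 10.8 between FUN libraries, 9.70 by title, 5.48 at a collagen threshold of 10 and 12.5 at 2000 UMIs and 10% mitochondrial UMIs. Pdgfrl (1.06) became −0.21 without HC mouse 2, with a range up to 1.45 over the mice left out, and −0.86 by title. Stromal against endothelial, 669 genes higher and 751 lower became 1124 and 1338 with no filter, and 387 to 679 and 513 to 833 without each mouse. Without the mouse as a replicate block they were 695 and 773. DESeq2 gave 493 and 642, fibroblast-gate cells alone 613 and 693, and cells of at most 3000 UMIs 558 and 627, the last 2 chosen after seeing the data.

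No paired analysis was possible because the labels give the HC and chow mice no shared pairing. The gene fits at 2000 UMIs and 10% mitochondrial UMIs were not run, since only HC mouse 2 and chow mouse 3 kept at least 10 stromal cells.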
